A study of Mus musculus with 2 samples.

Results

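Acyl-CoA synthetases join a fatty acid or acetate to coenzyme A, the step that admits the acid to metabolism. The 10 genes described here were taken by name: Acsl1, Acsl3, Acsl4 and Acsl5 for long-chain fatty acids, Acss1, Acss2 and Acss3 for short-chain acids, and Acsf2, Acsf3 and Acsm3 for other chain lengths. All 10 were found among the 45706 Ensembl gene IDs of the count files. RNA was sequenced from GFP-high intestinal stem cells of Lgr5-EGFP-IRES-creERT2 mice aged 4 months, in which cells at the crypt base, where Lgr5 is active, carry the green fluorescence used for the sort. The fasted group was 1 library from mice under fasting, and the fed group was 1 library from mice with free access to standard chow. Both groups carry the same reporter and Cre allele, and how long the mice fasted and how many were pooled is not stated in the labels. The comparison asks what fasting does to gene expression in these cells.

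The enzymes work by forming an acyl-adenylate from ATP and then passing the acyl group to coenzyme A. An activated long-chain fatty acid may be burned in mitochondria after transfer to carnitine, or built into triglyceride and phospholipid, and ACSL isoforms differ in their place in the cell and in the acids they prefer. Acetate is activated by ACSS2 in the cytosol and nucleus, and by ACSS1 in mitochondria. In the intestine, enterocytes use acyl-CoA for the resynthesis of dietary fat, while fatty acid oxidation has been studied as a fuel of crypt-base stem cells.

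The coding sequence of every member holds 1 copy of the nucleotide-binding loop that is common to enzymes of this fold. The stretches below are shown because they are what the families share and because they show how far the genes differ in bases even there. They are 30 bases long and are taken from the longest coding transcript of each gene in GENCODE release M21 (GRCm38). Capitals mark the 5 codons for a serine, a glycine, a pair of residues that are each serine or threonine, and a glycine.
Acsl1: ttcacaAGTGGAACTACAGGCaaccccaaa
Acsl5: ttcaccAGTGGAACTACAGGTgaccccaaa
Acsl3: tacacaAGTGGGTCCACAGGAattccaaag
Acsl4: tacaccAGTGGTTCTACGGGCcgccccaag
Acss1: tacaccTCAGGGAGCACCGGGacacccaag
Acss2: tacaccAGTGGCTCCACAGGCaaacctaag
Acss3: tacacaTCTGGAACAACTGGGctgcctaag
Acsf2: ttcaccTCGGGGACAACTGGAaaccccaag
Acsf3: tacaccAGCGGGACCACAGGGaggcccaag
Acsm3: ttcaccAGTGGGACAACTGGGcctcctaag

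The sequences group the long-chain genes in pairs. Over codon-aligned bases, Acsl1 and Acsl5 were 63.3% identical and Acsl3 and Acsl4 64.7%, while the 4 pairs across these groups lay between 45.9% and 46.9%. Acss1 and Acss2 were 54.8% identical. No stretch of 50 bases in any transcript of a member also occurred in a transcript of another member, on either strand, so reads of that length separate these paralogs.

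The fasted library held 5020056 counts over 17067 genes and the fed library 6985316 counts over 17970 genes. A count was thus worth 0.199 counts per 1000000 counts (CPM) in the fasted and 0.143 CPM in the fed library. Ratios below are fasted over fed after division by size factors (0.842 fasted, 1.19 fed), and their 95% intervals cover counting error only. A gene was measured when it had a mean of at least 1 CPM and at least 20 counts in sum, and it was called higher or lower when its ratio reached 2-fold and its interval excluded 1. With 1 library per group there is no replicate error and no test, so every difference describes these 2 libraries. Stem cell markers were present in both, with Lgr5 at 1709 counts in the fasted and 3381 in the fed library (log2 ratio -0.49, -0.57 to -0.40). Of 15 such markers 0 were called, and their median log2 ratio was -0.29. Olfm4 had the lowest value (-0.78), and Msi1 had -0.40. Markers of absorptive enterocytes differed between the libraries. Of 20, 14 were called higher and 0 lower, with a median log2 ratio of 1.17 and a summed level of 4607 CPM in the fasted and 2560 CPM in the fed library, over genes of 9.36 to 806 CPM and 1.86 to 575 CPM. Fabp1 (4.78), Slc15a1 (2.50) and Apoa1 (2.33) were the highest. The goblet cell list had 4 of 9 called higher (median 0.56), and the Paneth cell list 2 of 10 higher and 1 lower (median -0.38). After correction for exon length 2 genes of the Paneth cell list were lower (median -0.57). Enteroendocrine and tuft cell lists had 0 of 6 and 0 of 3 measured genes called, the immune list had 1 of 2 lower, and no gene of the stroma and red blood cell lists was measured. Cd79a (B cells), Col3a1 and Pdgfra (stroma), Alas2 (red blood cells) and Il25 (tuft cells) were among the genes with 0 counts in both libraries. Other genes of these lists had counts. Itgam had 26 in the fasted and 62 in the fed library, and Cd68 had 6 and 25. Trpm5 had 15 and 36, Vim 4 and 6, and Hbb-bs 2 and 0. The 0 counts thus do not show that a cell type was absent. The part of these cell type differences in the results below was not tested.

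As a set, the synthetase genes had a median ratio close to that of all measured genes. In bulk samples, fewer cells of a type and less RNA per cell cannot be told apart. All 10 members were measured. Of these, 0 were called higher and 1, Acss3, was called lower. Among all 12026 measured genes 2.51% were called higher, 1.91% lower and 4.42% either way. The median log2 ratio of the 10 genes was 0.07, against -0.02 for all measured genes, and 8 of the 10 lay between the 5th and 95th percentiles of all measured genes (-0.71 and 0.74). Acsl3 lay above that range and Acss3 below it. The 25th and 75th percentiles of all measured genes were -0.23 and 0.20. Counting intervals of 7 of the 10 genes excluded a log2 ratio of 0. That count was not made over all measured genes, so it cannot be read as particular to these genes. With scaling to total counts the interval of Acsl5 held 0 (-0.02 to 0.20). Summed over the 10 genes there were 5859 counts in the fasted and 7156 in the fed library, a log2 ratio of 0.21 (0.16 to 0.26).

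**Figure D1:**
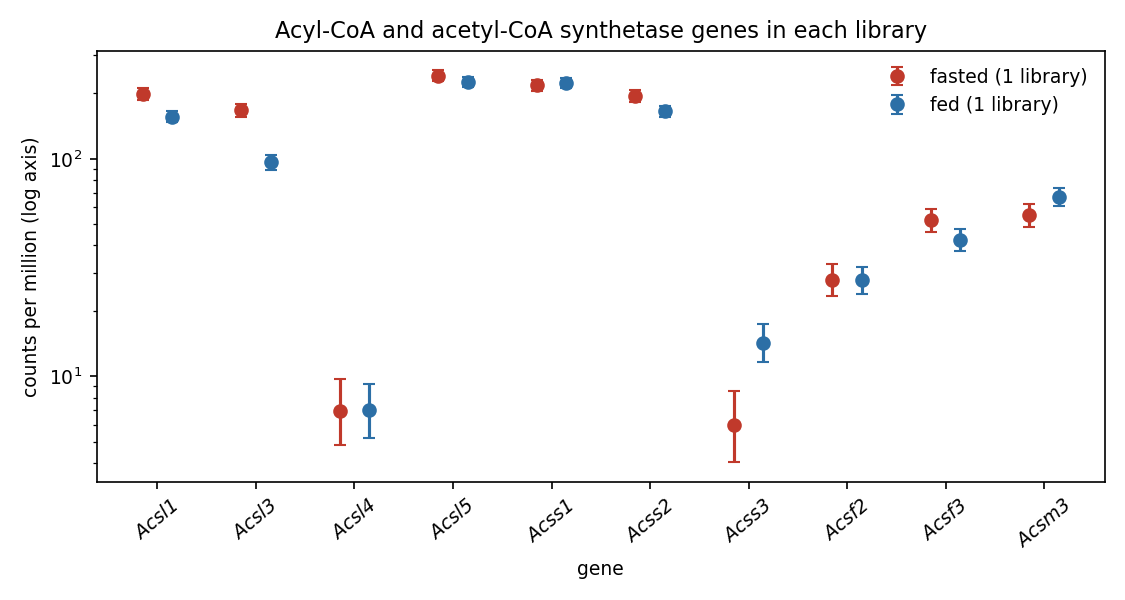
CPM (log axis) of the 10 synthetase genes in the fasted (red, left of each pair) and fed (blue) library; bars are exact 95% Poisson intervals for counting error. The intervals of the libraries do not overlap for Acsl1, Acsl3 and Acss2, which are higher in the fasted library, and for Acss3, which is lower, whereas Acsl4 and Acsf2 nearly coincide.

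Among the long-chain genes, Acsl3 showed the largest difference and stayed under 2-fold. Acsl3, whose product sits on the endoplasmic reticulum and on nascent lipid droplets, had 840 counts in the fasted and 672 in the fed library, which is 167 CPM (156 to 179) in the fasted and 96.2 CPM (89.1 to 104) in the fed library. After scaling, its ratio was 1.77-fold (1.59- to 1.96-fold), a log2 ratio of 0.82 (0.67 to 0.97). Of all measured genes 7.91% differed at least as much in either direction. Acsl3 lies on chromosome 1 (78657825 to 78707743, plus strand, GRCm38). It shares 5.60% of its exon bases with Utp14b on the same strand, a gene that had 151 counts in the fasted and 153 in the fed library.

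Acsl1, the isoform most often tied to fatty acid oxidation and triglyceride synthesis and a known target of PPAR receptors in liver and fat, had 995 counts in the fasted and 1090 in the fed library. Its log2 ratio was 0.37 (0.24 to 0.49), a 1.29-fold higher scaled level that did not reach the threshold. In the fasted library it stood at 198 CPM and in the fed library at 156 CPM. Acsl1 lies on chromosome 8 (46471037 to 46536051, plus strand).

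Acsl5, which is abundant in intestinal epithelium, was the member with the most counts in both libraries. It had 1210 counts in the fasted library, or 241 CPM, and 1578 counts in the fed library, or 226 CPM. The log2 ratio was 0.11 (0.01 to 0.22), and 70.4% of measured genes differed at least as much. Acsl5 lies on chromosome 19 (55251938 to 55297720, plus strand), with 8.31% of its exon bases under the opposite-strand gene Zdhhc6, whose log2 ratio was 0.15.

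Acsl4, which prefers arachidonic and other polyunsaturated acids, was scarce. There were 35 counts in the fasted and 49 in the fed library, which is 6.97 CPM (4.86 to 9.70) and 7.01 CPM (5.19 to 9.27). Its log2 ratio was 0.01 (-0.66 to 0.67), so that at this depth a difference of up to 1.59-fold either way was not detectable; the sign turned to -0.01 with scaling to total counts. Acsl4 lies on the X chromosome (142317993 to 142390535, minus strand). The remaining ACSL gene, Acsl6, which is best known from brain, was not among the 10 and had 10 counts in the fasted and 6 in the fed library, too few in sum to count as measured.

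**Figure D2:**
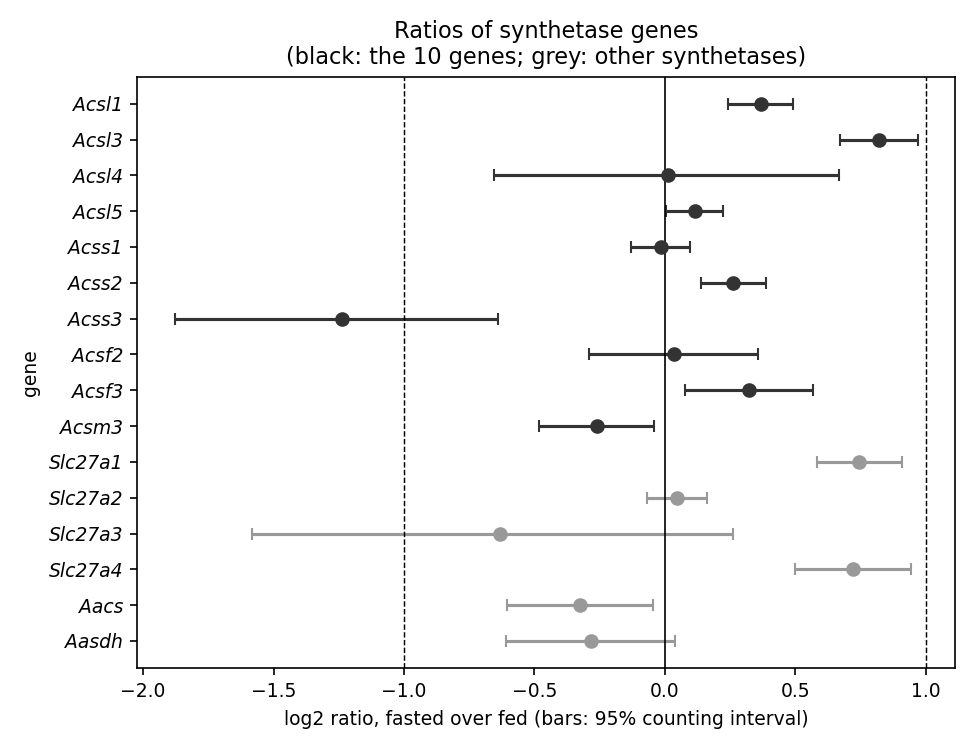
Log2 ratio of fasted over fed with its 95% counting interval for the 10 synthetase genes (black) and the 6 other measured synthetases (grey); dashed lines mark 2-fold. Acss3 alone lies past a dashed line with an interval that excludes 0, while Acsl3, Slc27a1 and Slc27a4 lie at 0.82, 0.75 and 0.72.

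The make-up of the ACSL set differed between the libraries in its Acsl3 and Acsl5 shares. Taken per exon length, Acsl3 made up 35.4% of the summed ACSL level in the fasted and 26.0% in the fed library, while Acsl5 made up 45.7% and 54.8%. Acsl1 held 17.4% in the fasted and 17.6% in the fed library, and Acsl4 held 1.19% and 1.53%. The sum also takes in Acsl6, at 0.19% in the fasted and 0.10% in the fed library. Shares of 1 sum are tied together. The Acsl5 share was lower in the fasted library, while the log2 ratio of Acsl5 itself was 0.11. These shares depend on the length used, since the exons of Acsl1 together span 10483 bases and its longest transcript 5676 bases. With the longest single transcript instead, Acsl1 held 25.7% in the fasted and 25.8% in the fed library and Acsl3 31.2% and 22.9%, and the order of Acsl1 and Acsl3 in the fed library turned.

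Ratios between paralogs within a library need no scaling factor, but those given here were not corrected for exon length. The correction moved log2 ratios from 0.37 to 0.49 for Acsl1, 0.82 to 0.84 for Acsl3 and 0.11 to 0.13 for Acsl5. The count ratio of Acsl3 to Acsl5 was 0.694 in the fasted and 0.426 in the fed library, a ratio of ratios of 1.63 (exact conditional 95% interval 1.43 to 1.85). Acsl1 relative to Acsl3 was 1.18 in the fasted and 1.62 in the fed library, a ratio of ratios of 0.730 (0.638 to 0.836). The close sequence relatives Acsl3 and Acsl4 also differed, at 1.75 (1.10 to 2.82), as did Acsl1 and Acsl5, at 1.19 (1.06 to 1.34). Of 10 such pairs within the ACSL, ACSS and ACSF groups, 7 had an interval that excluded 1. The intervals were not widened for the number of pairs. Pairs that share a gene are not independent. No such count was made for other gene pairs, so whether the share is particular to these genes is not known. The summed ACSL counts, with Acsl6 included, were 3090 in the fasted and 3395 in the fed library, a log2 ratio of 0.36 (0.29 to 0.43).

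**Figure D3:**
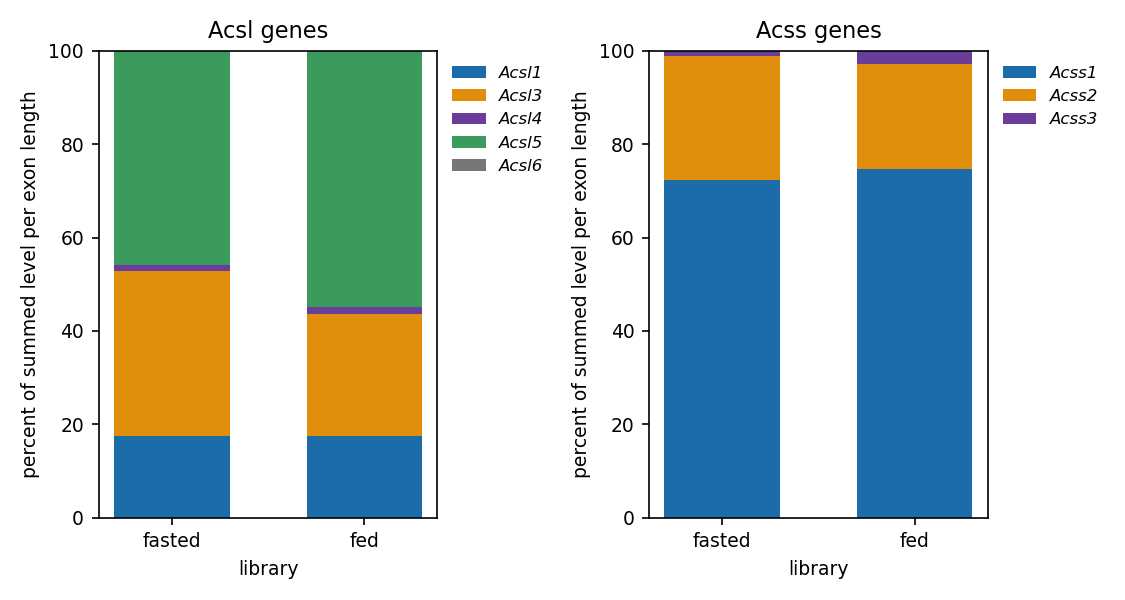
Share of each gene in the summed level per exon length of the ACSL genes (left panel) and ACSS genes (right panel), in percent, with the fasted library left of the fed library. The Acsl3 segment is 35.4% in the fasted and 26.0% in the fed library, and the Acss3 segment is 1.14% and 2.75%. With the longest transcript as length, Acss1 and Acss2 make up 52.0% and 46.9% of the fasted ACSS level, against 72.4% and 26.4% here. In the fed library they make up 55.8% and 41.45%, against 74.7% and 22.5% here.

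Of the acetate and short-chain genes, Acss3 fell in the fasted library. Acss3, a mitochondrial enzyme that prefers propionate in rat liver, had 30 counts in the fasted and 100 in the fed library. That is 5.98 CPM (4.03 to 8.53) in the fasted and 14.3 CPM (11.6 to 17.4) in the fed library. Its scaled ratio was 0.424-fold (0.272 to 0.643), a log2 ratio of -1.24 (-1.88 to -0.64), and 3.20% of measured genes differed at least as much. The interval reaches above a ratio of 0.5, so a reduction of less than 2-fold lies within counting error. Acss3 lies on chromosome 10 (106933517 to 107123668, minus strand). It shares 33.9% of its exon bases with the opposite-strand gene Ppfia2, which had 0 counts in the fasted library and 1 count in the fed library.

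Acss1, the mitochondrial acetate enzyme, was at nearly the same level in both. It had 1091 counts (217 CPM) in the fasted and 1557 counts (223 CPM) in the fed library, a log2 ratio of -0.02 (-0.13 to 0.10). The interval bounds any difference by counting error alone to between 0.915-fold and 1.07-fold, and the sign turned to 0.01 under upper-quartile scaling and after correction for exon length. Acss1 lies on chromosome 2 (150618105 to 150668500, minus strand).

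Acss2, the cytosolic and nuclear acetate enzyme and a target of sterol regulatory element-binding proteins, had 980 counts (195 CPM) in the fasted and 1154 counts (165 CPM) in the fed library. The log2 ratio was 0.26 (0.14 to 0.39), or 1.20-fold. It is on chromosome 2 as well (155517948 to 155585724, plus strand). Relative to Acss2, Acss1 gave a ratio of ratios of 0.825 (0.734 to 0.927). Acss2 relative to Acss3 gave 2.83 (1.85 to 4.45). Summed over the ACSS genes there were 2101 counts in the fasted and 2811 in the fed library, a log2 ratio of 0.08 (-0.0044 to 0.16).

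The other mitochondrial members were not called. Acsf3, which activates malonate in mitochondria and so feeds mitochondrial fatty acid synthesis, had 262 counts (52.2 CPM) in the fasted and 296 counts (42.4 CPM) in the fed library, a log2 ratio of 0.32 (0.08 to 0.57). It lies on chromosome 8 (122775486 to 122817880, plus strand). Acsf2, which acts on medium-chain acids, had 140 counts (27.9 CPM) in the fasted and 193 counts (27.6 CPM) in the fed library, a log2 ratio of 0.03 (-0.29 to 0.36). Of the 50-base stretches in Acsf2 transcripts, 33.3% also occur in the processed pseudogene Gm5540, which had 2 counts in the fasted and 1 in the fed library. Acsf2 lies on chromosome 11 (94557102 to 94601871, minus strand).

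Acsm3, a mitochondrial enzyme for medium-chain acids, had the second lowest ratio of the 10. It had 276 counts (55.0 CPM) in the fasted and 467 counts (66.9 CPM) in the fed library, a log2 ratio of -0.26 (-0.48 to -0.04), under the threshold. Acsm3 lies on chromosome 7 (119760923 to 119787513, plus strand) and 39.7% of its exon bases are covered by Eri2 on the opposite strand. Eri2 had 119 counts in the fasted and 232 in the fed library, a log2 ratio of -0.47 (-0.80 to -0.14), and reads of the shared bases cannot be told apart without strand.

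**Figure D4:**
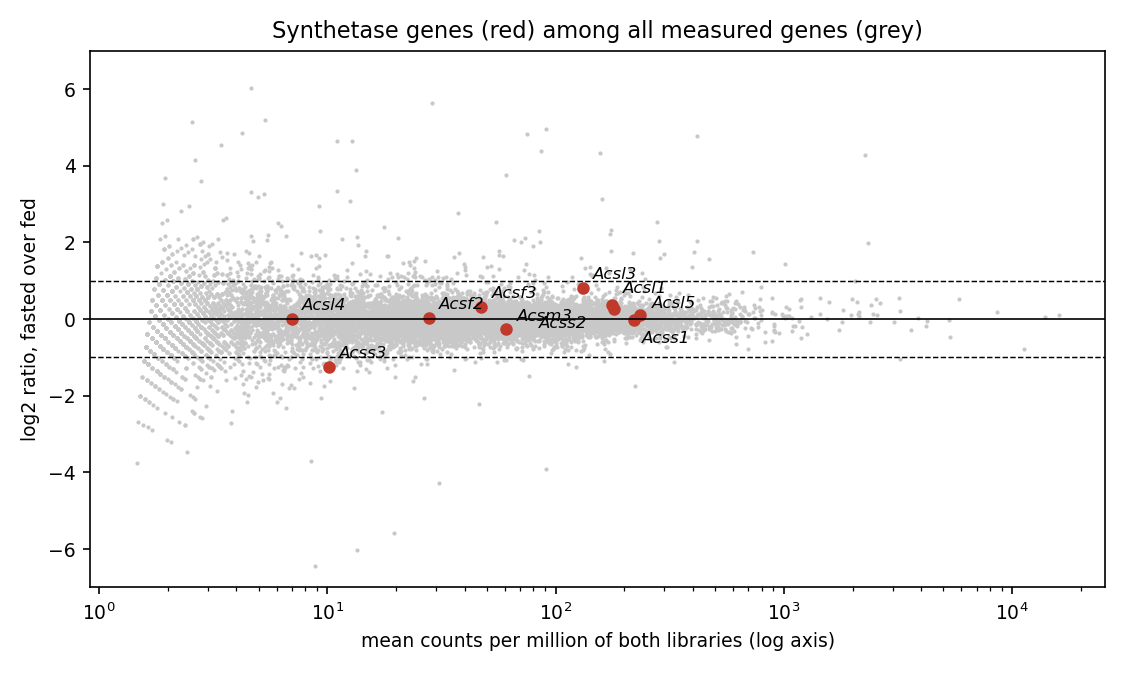
Log2 ratio of fasted over fed against mean CPM (log axis) for measured genes (grey) with the 10 synthetase genes in red; dashed lines mark 2-fold, and 1 measured gene without a fed count is not drawn. Of the red points, 8 lie between the 5th and 95th percentiles of all measured genes (-0.71 and 0.74), Acsl3 lies above at 0.82 and Acss3 below at -1.24.

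Per exon length, the members spanned a wide range of levels. Levels in CPM per kilobase of exon were 52.6 in the fasted and 54.0 in the fed library for Acss1, 49.6 and 46.4 for Acsl5, and 38.4 and 22.1 for Acsl3. Acss2 (19.2 fasted, 16.3 fed) and Acsl1 (18.9 fasted, 14.9 fed) came next, and their levels are lowered most by the length used, since their exons together span 10163 and 10483 bases, against 3609 and 5676 bases in the longest transcript. Acsf3 (13.9 fasted, 11.3 fed) and Acsm3 (11.1 fasted, 13.5 fed) took opposite orders in the libraries, with counting intervals that overlap in each. Acsf2 (8.13 fasted, 8.05 fed) was lower, and Acsl4 (1.29 fasted, 1.30 fed) and Acss3 (0.830 fasted, 1.99 fed) were the lowest. Counting intervals of neighbours also overlapped for Acss2 and Acsl1 and for Acsl4 and Acss3 in both libraries, for Acss1 and Acsl5 in the fasted library, and for Acsl1 and Acsm3 in the fed library. Acss1 stood above 93.2% of measured genes by its mean level per length, and Acsl4 above 10.9%.

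Of 15 other genes of the same enzyme class that were found, 6 were measured, with a median log2 ratio of -0.12. Of these 6, 0 were called, which is near the 4.42% called among all measured genes. The fatty acid transport proteins, which carry synthetase activity for very long-chain acids, included Slc27a1 with 672 counts in the fasted and 566 in the fed library (0.75, 0.58 to 0.91). Slc27a4, the main intestinal form, had 363 counts in the fasted and 311 in the fed library (0.72, 0.50 to 0.94). Slc27a2 had 1076 counts in the fasted and 1470 in the fed library (0.05, -0.07 to 0.16), and Slc27a3 had 16 and 35 (-0.63, -1.58 to 0.26). The acetoacetate enzyme gene Aacs had a log2 ratio of -0.32 (-0.61 to -0.05) and Aasdh -0.28 (-0.61 to 0.04). Acsm1, Acsm2, Acsbg1 and Acsbg2 had 0 counts in both libraries, which, at a floor of 3 counts, allows up to 0.598 CPM in the fasted and 0.429 CPM in the fed library.

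The steps after activation gave other counts. In mitochondrial entry and oxidation, 11 of 16 measured genes were higher and 0 lower (median log2 ratio 1.35), against 0 higher of 10 and a median of 0.07 for the synthetases. Among all measured genes 2.51% were called higher and the median was -0.02, so the 0 of 10 synthetases is near that share. Cpt1a, which moves the acyl group of long-chain acyl-CoA to carnitine, had 3526 counts in the fasted and 1689 in the fed library (1.56). Acadl (2.53), Slc25a20 (2.29) and Hadhb (2.02) had the largest ratios of the list. In the same library 14 of 20 enterocyte markers were also called higher, as given above, and their part in these values was not tested.

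Glycerolipid synthesis, which takes acyl-CoA into triglyceride, had 2 of 14 measured genes called higher and 0 called lower (median log2 ratio 0.35). For this and the lists below, the shares over all measured genes were 2.51% higher and 1.91% lower. The acyltransferase gene Agpat4 had 147 counts in the fasted and 97 in the fed library (1.10), and Mogat2, of the monoacylglycerol route of enterocytes, had 100 and 70 (1.01). Lpin1, a phosphatidate phosphatase gene, had -0.99 (-1.58 to -0.44), just short of the threshold. These calls turn on the scaling: with total counts 1 gene of the list was called higher and 1 (Lpin1, -1.01) lower, and after correction for exon length 0 were called either way. Phospholipid acyl transfer had 0 of 8 called higher and 1 called lower (median log2 ratio -0.11). The lower gene was Lpcat2, with 3 counts in the fasted and 29 in the fed library (-2.78, -5.13 to -1.09). Lpcat3, which places polyunsaturated acyl groups into phospholipid, had 973 counts in the fasted and 799 in the fed library (0.78, 0.65 to 0.92), and Lpcat4 had -0.69 (-1.48 to 0.06).

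Acetate and acetyl-CoA use, the surroundings of the ACSS enzymes, had 1 of 11 measured genes called higher and 0 called lower (median log2 ratio 0.08). The higher gene was Acacb, the acetyl-CoA carboxylase of the mitochondrial surface, with 568 counts in the fasted and 59 in the fed library (3.76). Acly, which makes cytosolic acetyl-CoA from citrate, had -0.26 (-0.38 to -0.14). The monocarboxylate transporter Slc16a1 had 0.23 (0.12 to 0.34), Slc16a7 had -0.72 (-2.03 to 0.46) and Crat 0.63 (0.35 to 0.91). Of the genes of mitochondrial fatty acid synthesis and malonate, around Acsf3, 2 of 9 were called higher and 0 lower (median log2 ratio 0.28). Mlycd, which decarboxylates malonyl-CoA, had 284 counts in the fasted and 166 in the fed library (1.27, 0.99 to 1.56), the lipoyl transferase gene Lipt1 had 75 and 49 (1.11), and Mcat had 0.34. After correction for exon length the Lipt1 value was 0.996 and 1 gene stayed called.

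Proteins that bind acyl-CoA or fatty acids had 2 of 9 measured genes called higher and 0 called lower (median log2 ratio 0.30). The higher genes, Fabp1 (4.78) and Fabp2 (1.71), are also in the enterocyte list. Scp2 had 0.51 (0.32 to 0.70). Dbi, the acyl-CoA binding protein, had 1613 counts in the fasted and 1716 in the fed library (0.41, 0.31 to 0.51). Sterol response genes, the set that Acss2 is known to belong to, had 0 of 15 called higher and 2 called lower (median log2 ratio -0.17), while Acss2 itself had 0.26. Of the lower genes, Scd2, a fatty acid desaturase gene, had -3.91. Fdps had -0.60 (-1.63 to 0.36) and Srebf1, the regulator, -0.42 (-0.58 to -0.27).

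**Figure D5:**
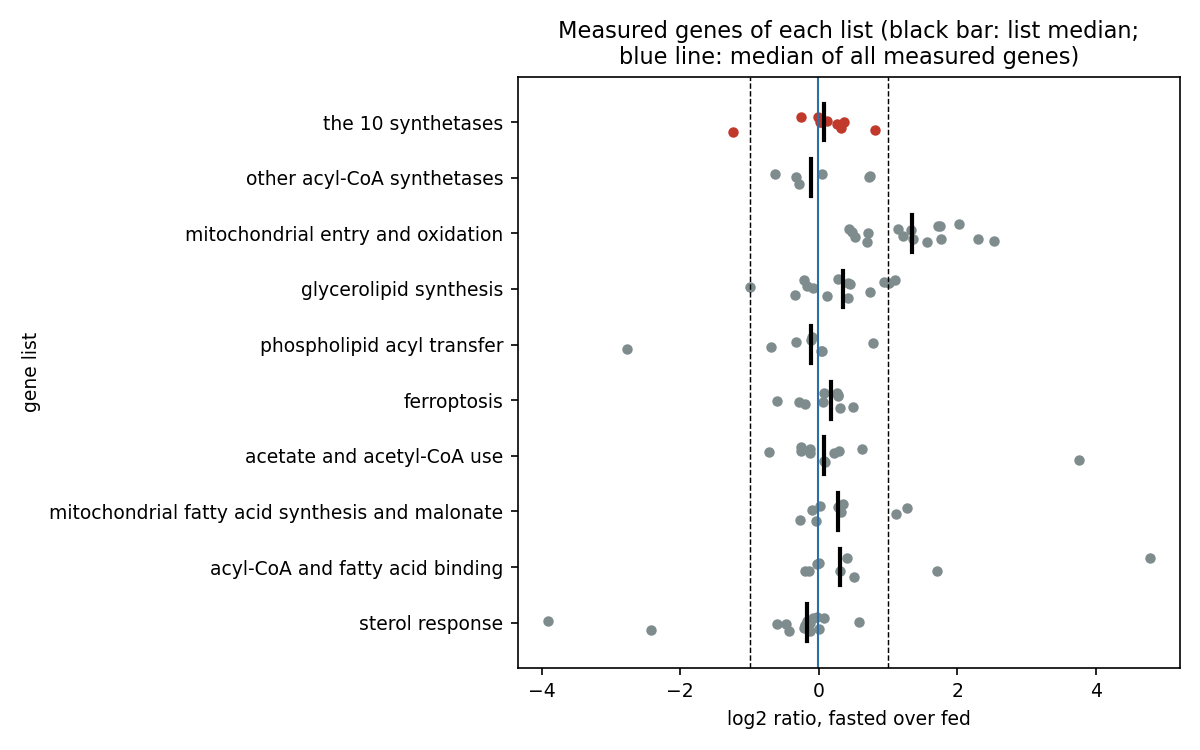
Log2 ratio of fasted over fed for each measured gene of the 10 lists, with the list median as a black bar, the median of all measured genes as a blue line and 2-fold as dashed lines. The synthetases centre at 0.07 and mitochondrial entry and oxidation at 1.35.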

How the data were processed

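RNA sequencing of 1 fasted and 1 fed library was analysed. The deposited counts are whole numbers per Ensembl gene without normalisation. A further table deposited by the authors holds a signal equal to each count divided by 1 factor per library, and counts divided by the size factors used here matched 100% of its values within 0.0051. FastQC, STAR, HTSeq and DESeq and the builds GRCm38 and mm10 are named per the submitters' processing notes. Neither the annotation used for counting nor its strand setting is given in the sources used here.

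Symbols were found for 45143 of 45706 IDs in GENCODE release M21 (GRCm38), which also gave coordinates, exon lengths and transcripts. Median-of-ratios factors scaled the counts. Each ratio has an exact 95% Clopper-Pearson interval (scipy 1.17.1) on the fraction of a gene's reads that came from the fasted library, and intervals and the floor of 3 counts cover counting error only. Reads without molecular identifiers are not independent molecules. With 1 library per group no test or p-value was possible. Coding sequences were compared with Biopython 1.88.

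The 10 genes, 9 further lists and 9 marker lists were chosen with earlier results of these data known. Named genes are all members, all measured genes of the other synthetases, up to 3 genes of largest ratio per list and fixed genes (Cpt1a, Acadl, Gpx4, Lpcat3, Acly, Slc16a1, Mlycd, Dbi, Srebf1, Lgr5). Further genes were chosen after their values were seen. A gene of the sterol response list and the search of promoters for motifs are not reported here. Marker lists other than stem cells and enterocytes are given by their counts, with medians for goblet and Paneth cells. From these lists 5 genes at 0 counts and some genes with counts are named. Protein sequences planned for display were not used here, so coding bases are shown. On simulated counts for fasted over fed (12026 genes), 66 of 66 genes changed 8-fold were called, 64 of 67 changed 3-fold and 1 of 67 changed 1.5-fold, and 45 of 11826 unchanged genes (0.381%). The simulated counts varied by counting error only. These shares therefore leave out variation between mice, sorts and library preparations, and they are not error rates for the real comparison. Alternatives were edgeR 4.0.16 TMM and upper-quartile factors, total counts, the deposited table, exon length correction (running median of 501 genes), other filters, thresholds and lengths.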

Additional observations from a re-analysis of the deposited data

How the results depend on the processing

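All 50 recomputed log2 ratios of the 10 genes, under TMM, total-count and upper-quartile scaling, the deposited table and exon length correction, stayed within their counting intervals, and Acss3 stayed called lower under each, between -1.26 and -1.15. The deposited table holds the same counts under the same factors, so its ratios match by construction. TMM factors moved the log2 ratios by only 0.0017. The median of the 10 genes ranged from 0.05 (total counts) to 0.10 (length correction). At 1.5-fold 1 of the 10 synthetases was higher and 1 lower, against 614 higher and 607 lower of all 12026 measured genes. At 3-fold 0 synthetases were lower, against 124 higher and 88 lower of all. When the interval bound had to reach 2-fold, 0 synthetases were lower, against 103 higher and 36 lower of all. At a mean of 5 CPM, 176 were higher and 111 lower of the 10506 genes that passed, and the synthetase counts did not move. With the longest transcript as length, Acsl1, Acsl3 and Acsl5 made up 25.7%, 31.2% and 41.9% of the ACSL level in the fasted and 25.8%, 22.9% and 49.96% in the fed library. Raw counts gave 32.2%, 27.2% and 39.2% in the fasted and 32.1%, 19.8% and 46.5% in the fed library. Fewer genes pass stricter thresholds by construction, and shares move with length by construction. Recounting the other lists under the same scalings, chosen after seeing the data, moved counts in the glycerolipid, mitochondrial fatty acid synthesis and Paneth cell lists by over 1.5 times, as given beside them. Smaller shifts were seen in 14 higher enterocyte markers, which became 13 with total counts and 12 after correction for exon length. The 4 higher goblet cell markers became 3 after that correction. No paired analysis was possible because each group has 1 library, and for the same reason no replicate could be left out. Counts under about 50, as for Acsl4 and Acss3, limit precision most.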

Other observations

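Lipid peroxidation and ferroptosis genes, a setting in which Acsl4 is known as a supplier of polyunsaturated acyl-CoA, had 0 of 10 measured genes called and a median log2 ratio of 0.17. Among all measured genes 4.42% were called, so 0 of 10 is near that share. The peroxidase gene Gpx4, which reduces lipid hydroperoxides, had 95 counts in the fasted and 163 in the fed library, a log2 ratio of -0.28 (-0.66 to 0.09). The ferritin receptor gene Ncoa4 had -0.61 (-1.45 to 0.19), Gch1 0.50 (-0.31 to 1.31) and the transferrin receptor gene Tfrc 0.30 (0.25 to 0.36). The lipoxygenase genes Alox5, Alox12 and Alox15 had 2, 1 and 3 counts in the fasted and 1, 1 and 6 counts in the fed library.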
